A study of Rattus norvegicus with 12 samples.

Results

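Non-fibrotic bronchi of rats that had inhaled 2,3-pentanedione (PD) were compared with bronchi of rats that had breathed filtered air. The comparison was chosen by the array labels alone and uses 3 arrays of exposed non-fibrotic bronchi (replicates 4, 8 and 10) and 6 arrays of air-exposed controls (replicates 1 to 6), which are 9 of the 12 arrays of the study. The other 3 arrays, replicates 3, 7 and 9, hold fibrotic bronchi of exposed rats and show where non-fibrotic bronchi differ from them. All 12 arrays were fitted in 1 model, so the fibrotic arrays also enter the standard errors and p-values of the comparison with controls. All rats were male Wistar (Wistar Han in the methods), 6 to 7 weeks old when they were obtained, and the exposed rats inhaled 200 ppm PD for 2 weeks. Tissue came from the right diaphragmatic lobe, and each specimen was cut by laser from frozen sections as the lining epithelium with the connective tissue, muscle and adventitia beneath it. According to the methods, the exposed bronchi taken as non-fibrotic came from 3 rats whose other bronchi were fibrotic, and their epithelium looked normal or was regenerating, with or without mild inflammation. The labels do not tie specimens to rats. Where nothing shows that arrays are of separate rats, a p-value measures only the spread between these arrays.

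PD is an α-diketone used as a butter flavouring, and inhaled diketones injure the lining of the conducting airways. That lining holds ciliated cells, which move mucus with motile cilia, and secretory cells, among them the club cells. Club cells release secretoglobins and host defence proteins, carry cytochrome P450 enzymes that act on inhaled chemicals, and divide to renew the epithelium after injury. Alveolar type I cells form the thin gas exchange surface, and type II cells make surfactant and replace type I cells. In obliterative bronchiolitis, failed repair of the airway ends in scar tissue that narrows the lumen.

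Each value below is the log2 of a MAS5 signal, a brightness in arbitrary units that the authors had scaled to the same trimmed mean on every array. Probe sets for bacterial trp transcripts on all arrays, and for bacterial poly-A transcripts on controls 1 and 2 only, were taken as absent. For the poly-A transcripts this was inferred from their low signal in controls 1 and 2, and the other arrays hold them. Together these probe sets reached at most 6.52, which is called the level of absent transcripts below. If all arrays of a group lay under it, a lower bound of the change, measured from that level, is given for named genes. Fitted differences that are also printed for such genes, or for their other probe sets, have no floor. Labels of controls 1 and 2 have the same form as those of the exposed arrays, and labels of controls 3 to 6 have another. Poly-A transcripts added during labelling had a mean log2 signal of 2.31 and 2.33 in controls 1 and 2, of 9.99 to 10.6 in controls 3 to 6 and of 10.4 to 11.1 in non-fibrotic arrays. GAPDH was measured at both ends of its transcript, and the log2 of the 3′ over the 5′ signal, which is higher for shorter RNA, was 1.16 and 2.04 in controls 1 and 2, 0.70 to 0.90 in controls 3 to 6 and 1.95 to 2.35 in non-fibrotic arrays. For beta-actin the same ratio was 2.09 and 2.44 in controls 1 and 2 and 1.37 to 1.71 in controls 3 to 6. In non-fibrotic replicates 4, 8 and 10 it was 1.58, 2.30 and 1.89. The part of these differences in the results was not tested, and values against each set of controls are given for part of the genes and lists. Non-fibrotic replicate 4 lay as near to the mean of the fibrotic arrays (root mean square log2 distance 1.25 over all probe sets) as to the control mean (1.28), whereas replicates 8 and 10 lay nearer to the control mean (1.55 and 1.47) than to the fibrotic mean (1.80 and 1.57).

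Of 31042 probe sets, 162 (0.522%) differed between non-fibrotic and control bronchi at a Benjamini-Hochberg adjusted p under 0.01 in limma, the level used for calls here, and 1811 did so at an adjusted p under 0.05. Fewer of the called probe sets rose (51) than fell (111). Signals of the non-fibrotic arrays did not overlap those of the controls at any of the 162, as at 14.6% of all probe sets. By the probe set of highest signal for each gene, 26 of 14217 genes rose (0.183%) and 62 fell (0.436%), and at an adjusted p under 0.05 there were 404 (2.84%) and 529 (3.72%). The median log2 difference over all genes was 0.0037, with 50.19% of genes higher in non-fibrotic bronchi.

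The number of calls depended on single arrays. Leaving out 1 of the 9 arrays gave between 41 probe sets (without control 6) and 371 (without non-fibrotic replicate 4), and the 162 had an adjusted p of at most 0.0417 in these fits. Because the groups do not overlap at these probe sets, their direction could not change in such a fit or against a part of the controls. The 15 genes called whichever array was left out were the risers Cryba2 and Trim6 and the fallers Adam8, C3, Ccdc30, Cfap20dc, Crispld2, Gad1, Hp, Lgals3bp, Morn5, Mrm3, Pecr, Scin and Tnfrsf19. Against controls 3 to 6 alone 153 of the 162 were called, and against controls 1 and 2 alone 2 were called and 14 had an adjusted p under 0.05. The median ratio of the difference from controls 1 and 2 to that from all controls was 0.936. Of the 45 called genes named here, Mki67 and Snx27 moved by over 1.5 times against controls 1 and 2, and none did against controls 3 to 6. With the form of the labels as a random block in limma, 58 probe sets were called, and 21 of the 45 genes lost their call (adjusted p up to 0.0234), namely Ano4, Ccl20, Cfap299, Cldn18, Cobl, Cyp2a3, Dclk2, Dmrt2, Erg, Erich3, Fbln1, Ift52, Mki67, Pon1, Sema3b, Shcbp1, Slc5a11, Snx27, Sorl1, Stra6 and Xbp1. Of the 21 genes among the 45 with more than 1 probe set, 10 had a difference more than 1.5 times smaller when their probe sets were averaged, namely Adam8, Cebpa, Gad1, Mrm3 and Shcbp1, and Ccnd1 (to 0.85), Cobl (0.97), Fbln1 (-0.90), Pon1 (-0.64) and Snx27 (0.67), which came under 1 on the log2 scale.

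**Figure D1:**
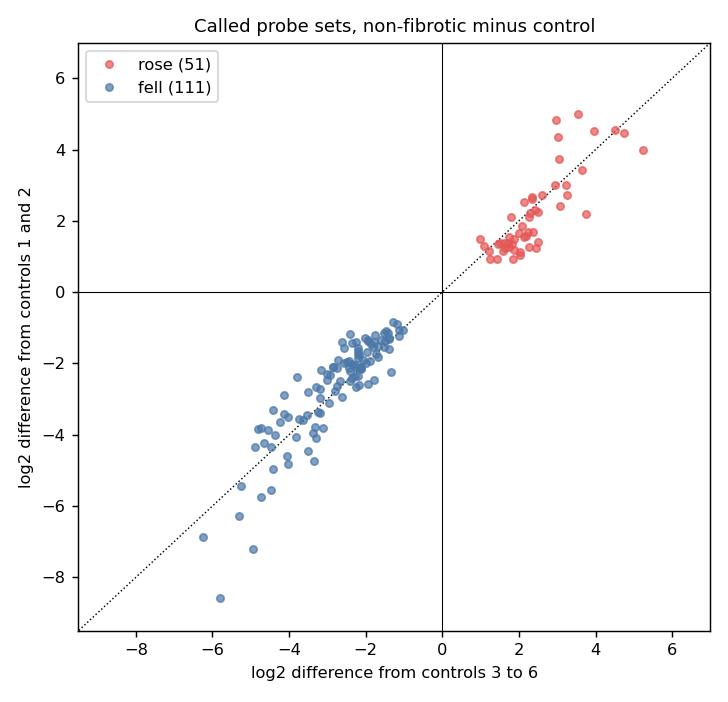
Log2 difference of non-fibrotic bronchi from controls 3 to 6 (horizontal) and from controls 1 and 2 (vertical) at the 162 called probe sets, red where they rose (51) and blue where they fell (111). The dotted line marks equal differences. The probe sets were chosen for their difference from all 6 controls, and as the groups do not overlap at any of them, each must lie on the same side of 0 on both axes.

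Products of airway secretory cells were among the deepest falls. Scgb3a1, a small secreted protein of the secretoglobin family, had log2 signals of 6.15, 6.83 and 4.94 in non-fibrotic replicates 4, 8 and 10, and of 10.05 to 14.76 in controls (median 13.0). Every non-fibrotic array lay below every control, and 2 of the 3 lay under the level of absent transcripts. The difference was -6.73 ± 0.89 (SE; adjusted p = 0.00161, limma), or -6.08 with arrays under that level set to it. It was -8.57 against controls 1 and 2 and -5.81 against controls 3 to 6, and the call was lost without non-fibrotic replicate 10 (adjusted p = 0.0116). Cyp2a3, a P450 enzyme of airway epithelium, had 3.62, 9.64 and 9.32 in the same replicates and 12.68 to 13.93 in controls (median 12.98), so that replicate 4 stood far below the other 2. The difference was -5.64 ± 0.92 (adjusted p = 0.00602), -4.67 with the level of absent transcripts as a floor, and -3.68 without replicate 4. Its call was lost without control 2, 3, 4 or 6 (adjusted p up to 0.0152).

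Pon1, a paraoxonase that hydrolyses lactones and organophosphates, had log2 signals of 6.05, 7.80 and 7.57 in non-fibrotic bronchi and 9.41 to 11.27 in controls (median 10.65), a fall of 3.32 ± 0.51 (adjusted p = 0.00422). Its other, dimmer probe set was higher in non-fibrotic bronchi by 2.03 (mean 4.78 in controls and 6.81 in non-fibrotic bronchi, adjusted p = 0.0834). Hp, the haemoglobin-binding acute phase protein haptoglobin, had 9.21, 9.85 and 9.15 against 11.35 to 12.72 (median 12.21), a 6.64-fold lower signal (log2 difference -2.73 ± 0.32, adjusted p = 0.00127). The groups did not overlap for either gene. The call of Pon1 was lost without control 3, 4, 5 or 6 or non-fibrotic replicate 10 (adjusted p up to 0.0154). Of 19 club cell genes measured these 4 fell and none rose at the call level, at which 0.436% of all genes fell and 0.183% rose. The median log2 difference of the list was -0.44 (-0.85 against controls 1 and 2 and -0.36 against controls 3 to 6).

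Other club cell genes did not pass the test. Scgb1a1, the most abundant club cell secretoglobin, had log2 signals of 14.73, 15.37 and 15.22 in non-fibrotic bronchi and 13.98 to 15.22 in controls, a difference of 0.65 ± 0.30 with overlapping groups (adjusted p = 0.178). Aldh1a1, an aldehyde dehydrogenase, differed by 0.56 ± 0.48 (adjusted p = 0.477). Cyp2f4, a P450 of club cells, had 10.78, 12.82 and 10.81 against 12.97 to 13.39, and its difference of -1.61 ± 0.61 did not pass the test (adjusted p = 0.111). The summed signal of the 19 genes was 67840 to 113700 in non-fibrotic bronchi, overlapping the controls (86770 to 147200) and above the fibrotic bronchi (13880 to 27790). In bulk tissue, fewer cells of a type and less RNA in each cell cannot be told apart.

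None of 18 genes of goblet cells and airway secretions passed the call level. Muc5b, a gel-forming mucin, had log2 signals of 7.66, 6.40 and 7.76 in non-fibrotic bronchi and 9.04 to 14.58 in controls (median 12.5), which do not overlap, but the wide spread of the controls left it at an adjusted p of 0.0265 (difference -4.94 ± 1.16). Its difference was -7.11 against controls 1 and 2 and -3.85 against controls 3 to 6. Lyz2, a lysozyme, and Tff3, a trefoil peptide, differed by 0.80 ± 0.19 and 1.69 ± 0.39 (adjusted p = 0.0291 and 0.0262). The median of the list was 0.30 and turned to -0.75 against controls 1 and 2, and it was 0 with the level of absent transcripts as a floor. The summed signal of these genes was 89640 and 121200 in controls 1 and 2, 28170 to 71540 in controls 3 to 6 and 39830 to 50410 in non-fibrotic bronchi.

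**Figure D2:**
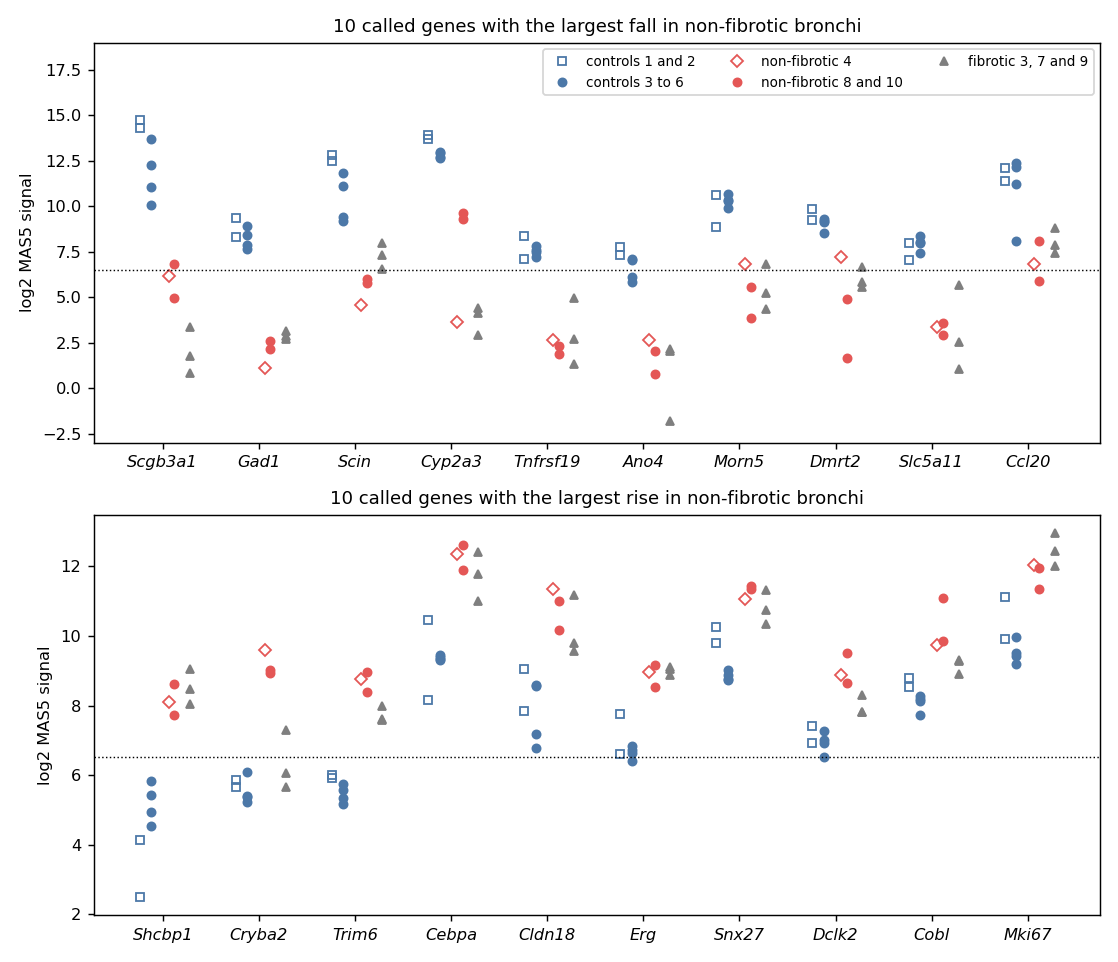
Log2 MAS5 signal of the 10 called genes with the largest fall (top) and the 10 with the largest rise (bottom) on each array, taken among genes with a group mean above the level of absent transcripts (dotted line, 6.52). Squares and blue points are controls, diamonds and red points non-fibrotic bronchi, and triangles fibrotic bronchi. The genes were chosen for the difference between control and non-fibrotic arrays, and these do not overlap in any panel column. One non-fibrotic array of Scgb3a1, at 6.83, lies above the dotted line.

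Besides Hp, the complement and acute phase genes C3 and Cp fell. C3, the central component of complement, had log2 signals of 10.24, 10.25 and 9.39 in non-fibrotic bronchi and 12.02 to 13.02 in controls (median 12.61), a 6.10-fold lower signal (log2 difference -2.61 ± 0.30, adjusted p = 0.00092). Cp, the copper-carrying ferroxidase ceruloplasmin, had 8.52, 7.81 and 9.55 against 10.47 to 11.55 (median 10.86), a fall of 2.32 ± 0.37 (adjusted p = 0.00468). No non-fibrotic array reached a control for C3, Cp or Hp. Cp was measured by 3 probe sets, of which 2 fell and the other had a difference of -1.19 (adjusted p = 0.0222). At its brightest probe set the call of Cp was lost without control 3, 4 or 6 or non-fibrotic replicate 8 (adjusted p up to 0.0259).

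These 3 genes were the only ones of 27 complement and acute phase genes to pass the call level, all of them lower, while 12 of the 27 were higher. At that level 0.436% of all genes fell. The list's median was -0.39, and it was -0.64 against controls 1 and 2, 0.03 against controls 3 to 6, -0.88 without non-fibrotic replicate 4, in which it was 0.58, and 0 with the level of absent transcripts as a floor. Fgb, the fibrinogen beta chain, was at least 1.51-fold higher (adjusted p = 0.027), with every control under the level of absent transcripts. Its other 2 probe sets differed by -1.53 and 1.26 (adjusted p = 0.279 and 0.466). Lgals3bp, a secreted scavenger receptor-like glycoprotein that is outside the lists and was named after its values were seen, had 9.82, 9.08 and 8.95 against 11.38 to 12.44 (median 12.18). Its fall of 2.77 ± 0.26 had the smallest adjusted p of the named genes beside Gad1 (0.00024 for both), and the groups did not overlap.

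Promoter windows were available for C3 and Cp, 2 of the 3 fallen genes of the complement and acute phase list, and not for Hp. They were chosen by the call and not by the motif. Marked in them is a binding motif of C/EBP factors, the family of the risen gene Cebpa described below. The part of Cebpa in these falls was not tested. The windows, from RefSeq (GRCr8), hold 250 bases before to 50 bases after the annotated start, on the strand of the gene. C3 lies on the minus strand of chromosome 9 (chr9:2201290-2201589) and Cp on the plus strand of chromosome 2 (chr2:104368420-104368719). Capitals mark the only match to TTGCNNAA on either strand, which begins 104 bases before the start in C3 and 72 before it in Cp.
C3: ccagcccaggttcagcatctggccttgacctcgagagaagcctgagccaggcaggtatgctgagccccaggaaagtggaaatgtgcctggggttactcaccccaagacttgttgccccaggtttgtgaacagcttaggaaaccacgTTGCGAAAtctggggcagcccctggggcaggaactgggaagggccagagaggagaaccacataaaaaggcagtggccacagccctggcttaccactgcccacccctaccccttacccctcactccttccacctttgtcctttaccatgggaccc
Cp: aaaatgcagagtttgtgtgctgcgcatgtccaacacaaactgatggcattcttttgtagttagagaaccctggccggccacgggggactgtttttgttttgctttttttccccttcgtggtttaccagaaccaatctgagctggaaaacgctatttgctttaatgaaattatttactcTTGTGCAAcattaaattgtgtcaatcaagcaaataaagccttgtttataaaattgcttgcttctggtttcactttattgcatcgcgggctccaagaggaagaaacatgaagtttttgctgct
The motif was found in 10.6% of 33469 such windows, in 9.15% of the 11733 tested genes with a window, in 5 of 51 genes that fell (9.8%) and in 2 of 23 that rose (8.7%). A match is a description of these letters and not a bound site, and the called genes held it about as often as all genes.

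Genes of motile cilia were lower in part, while the summed signal of ciliated cell markers still overlapped that of controls. Dnah1, a heavy chain of the inner dynein arms that bend the axoneme, had log2 signals of 9.15, 9.97 and 9.91 in non-fibrotic bronchi and 11.32 or more in controls (median 11.77), a 4.23-fold lower signal (log2 difference -2.08 ± 0.30, adjusted p = 0.00284). The groups did not overlap, and the call was lost without control 3 or 6 (adjusted p up to 0.0117). It was the only 1 of 26 measured genes of ciliated cells at the call level, while 21 of the 26 were lower and 7 had an adjusted p under 0.05, all lower (3.72% of all genes were so). Among these were Dnai1, an outer dynein arm chain (difference -2.14 ± 0.44, adjusted p = 0.0164), Rsph9, a radial spoke protein (-2.22 ± 0.49, 0.0219), and Ak7, an adenylate kinase of cilia (-3.02 ± 0.77, 0.0346). Foxj1, the master regulator of motile ciliogenesis, had 12.16, 12.86 and 12.14 in non-fibrotic bronchi, in the range of the controls (12.07 to 12.94, adjusted p = 0.958). The median of the list was -0.62 (-0.38 against controls 1 and 2 and -0.68 against controls 3 to 6). Summed over the list, signals were 70040 to 110500 in non-fibrotic bronchi, 91330 to 129900 in controls and 4529 to 9203 in fibrotic bronchi.

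Genes of cilia outside the list were also among the called ones, and those given here were named after their values were seen. Ift52, a subunit of the intraflagellar transport particle that builds cilia, had 8.82, 7.99 and 8.29 against 9.55 to 10.86 in controls, a fall of 2.05 ± 0.34 (adjusted p = 0.00687). Dnaaf9, an assembly factor of axonemal dynein, fell by 1.87 ± 0.27 (adjusted p = 0.00284). Cfap299 and Cfap20dc, which are named as cilia and flagella associated proteins, fell by 3.69 ± 0.58 and 2.25 ± 0.24 (adjusted p = 0.00438 and 0.00053). The calls of Ift52, Cfap299 and Dnaaf9 were lost in 6, 6 and 4 of the 9 fits without 1 array (adjusted p up to 0.0297).

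**Figure D3:**
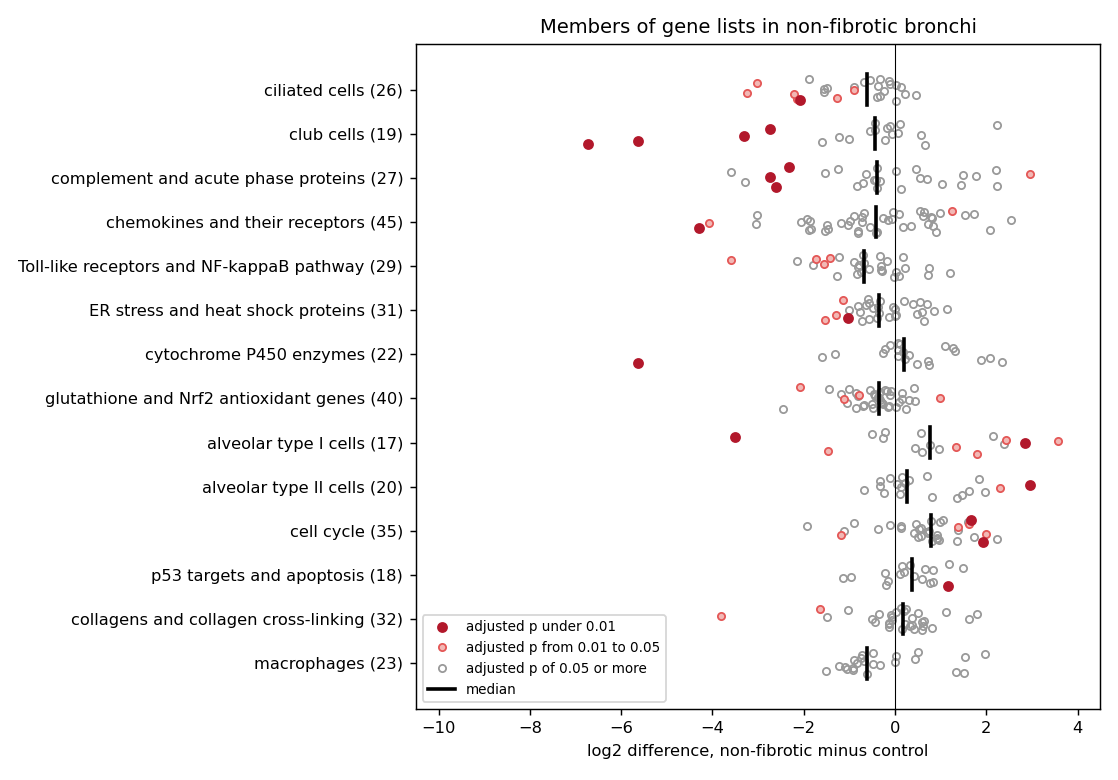
Log2 difference of non-fibrotic from control bronchi for each measured member of 14 gene lists, with the number of members in brackets. Filled dark points passed the call level (adjusted p under 0.01 in limma), light red points had an adjusted p from 0.01 to 0.05, grey circles had more, and a bar marks each median. The 4 fallen club cell genes reach -6.73, and medians run from -0.68 (Toll-like receptors and NF-kappaB pathway) to 0.79 (cell cycle).

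Ccl20 was the only gene to fall among chemokines, the NF-kappaB pathway and interferon response genes, and 28 of 45, 22 of 29 and 14 of 20 measured members of these lists had a lower mean than controls. Ccl20, a chemokine for immature dendritic cells and lymphocytes, had log2 signals of 6.85, 5.87 and 8.07 in non-fibrotic bronchi and 8.09 to 12.4 in controls (median 11.75). The lowest control, replicate 5 at 8.09, stood far from the other 5 and close to non-fibrotic replicate 10. The difference was -4.30 ± 0.75 (adjusted p = 0.00786), -4.08 with the floor, and the call was lost in 8 of the 9 fits without 1 array (adjusted p up to 0.0377). Of 45 chemokines and receptors Ccl20 alone passed the call level, with a list median of -0.42 (0.60 in replicate 4, -1.14 in replicate 8 and -0.05 in replicate 10). With the floor the list's median was -0.02. In this list 17 genes were higher, and the receptor Ackr4 was so by 1.24 without overlap (adjusted p = 0.0464). Cxcl6, a neutrophil chemokine, differed by -4.08 (at least 2.43-fold lower, adjusted p = 0.0197), with all non-fibrotic arrays under the level of absent transcripts. Cxcl1, another neutrophil chemokine, had 9.69, 10.42 and 10.09 against 10.89 to 12.64 in controls, which did not pass the test (-1.49, adjusted p = 0.118).

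No gene of 29 in the Toll-like receptor and NF-kappaB pathway passed the call level, but 22 were lower, 4 of them at an adjusted p under 0.05 (3.72% of all genes), and the median was -0.68 (-0.33 with the floor). Nfkbia, the NF-kappaB inhibitor that this factor itself induces, had 9.08, 8.39 and 8.69 against 9.48 to 11.06 in controls (-1.55 ± 0.35, adjusted p = 0.0234). Tnfrsf1a, the main receptor for tumour necrosis factor, had 8.42, 7.68 and 8.37 against 8.78 to 10.14 (-1.43 ± 0.32, adjusted p = 0.0239). The groups did not overlap for Nfkbia or Tnfrsf1a, as for 14.8% of all genes. The others of the 4, Tnfaip2 (-3.60, adjusted p = 0.0156) and Tnfaip3 (-1.74, 0.0438), had groups that overlapped. In replicate 4 the list's median was 0.01, against -0.90 and -0.70 in replicates 8 and 10. Of 20 interferon response genes 4 were lower at an adjusted p under 0.05, among them Ifit3 (at least 2.80-fold lower, adjusted p = 0.0208) and Ifi27 (-1.21, adjusted p = 0.0132), and none passed the call level.

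Xbp1, the transcription factor of the unfolded protein response that supports secretory cells, had log2 signals of 11.74, 11.25 and 11.03 in non-fibrotic bronchi and 12.11 to 12.58 in controls (median 12.41), a fall of 1.04 ± 0.18 (adjusted p = 0.00848, lost in 7 of the 9 fits without 1 array, adjusted p up to 0.0343). Ddit3, the stress-induced factor CHOP, and Herpud1, which aids degradation of misfolded proteins, differed by -1.53 ± 0.33 and -1.29 ± 0.29 (adjusted p = 0.0199 and 0.0242). The groups did not overlap for Xbp1 or Ddit3. Of 31 genes of ER stress and heat shock, Xbp1 alone was called, 21 were lower, and the median was -0.35.

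Apart from Cyp2a3, enzymes that act on foreign chemicals showed few calls. The other 21 of 22 P450 genes measured were not called and the list's median was 0.20, and 16 of the 22 were higher. In both groups 7 of the 22 lay under the level of absent transcripts, and with the floor the median was 0. The summed signal of the 22 was 11650 to 22550 in non-fibrotic bronchi and 29260 to 35610 in controls, and without Cyp2a3 the sums overlapped (11640 to 21760 and 16060 to 26600). None of 34 carbonyl reducing and oxidising enzymes, the class that handles diketones, was called (median -0.22). Dcxr, the dicarbonyl and xylulose reductase, had 10.16, 9.45 and 8.43 against 9.28 to 10.53 in controls (adjusted p = 0.192). Akr7a2, an aldehyde reductase, differed by -1.57 ± 0.33 (adjusted p = 0.0189). None of 40 glutathione and Nrf2 antioxidant genes was called, 31 were lower, and the median was -0.35. Catalase (Cat) was the only 1 of them higher at an adjusted p under 0.05, at 12.5, 13.19 and 13.22 against 11.49 to 12.25 in controls (0.99 ± 0.24, adjusted p = 0.0282).

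Among the largest rises were Cebpa and Cldn18, both known from the distal lung. Cebpa, a transcription factor of type II and club cell maturation, had log2 signals of 12.37, 12.62 and 11.91 in non-fibrotic bronchi and 8.15 to 10.45 in controls (median 9.36), a 7.74-fold higher signal (log2 difference 2.95 ± 0.39, adjusted p = 0.00161). Cldn18, a claudin that seals alveolar tight junctions, had 11.35, 10.18 and 11.02 against 6.79 to 9.04 (median 8.20), a 7.22-fold higher signal (2.85 ± 0.49, adjusted p = 0.00743). All 3 non-fibrotic arrays exceeded all 6 controls for both. The differences were 3.00 and 2.41 against controls 1 and 2 and 2.93 and 3.07 against controls 3 to 6. At Cebpa 3 of 5 probe sets rose and the others differed by 0.91 and 0.81, and at Cldn18 2 of 3 rose and the other differed by 3.50 (adjusted p = 0.0126). The call of Cebpa was lost without non-fibrotic replicate 8 (adjusted p = 0.0125), and that of Cldn18 in 8 of the 9 fits without 1 array (adjusted p up to 0.0302).

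Cebpa and Cldn18 were the only risen genes in the lists of alveolar markers. The summed signal of 17 alveolar type I genes was 36240, 44700 and 42420 in non-fibrotic replicates 4, 8 and 10 and 21180 to 34130 in controls. For 20 type II genes it was 84010, 103700 and 87780 against 43490 to 75760. Neither sum overlapped between the groups, also without the gene that added most to the gap, Igfbp2 for type I (34530 to 37620 against 21080 to 33040) and Sftpa1 for type II (62740 to 71380 against 32080 to 61610), and their part in the rises of Cebpa and Cldn18, which are themselves in these lists, was not tested. Such a gap was not particular to alveolar genes. With and without their top gene, the sums for PDGF, FGF, IGF, HGF and Gas6 growth factors and receptors lay above all controls. Those for cholesterol synthesis lay below all controls. Sftpa1, a surfactant protein of type II cells, had log2 signals of 14.38, 14.98 and 14.54 against 12.61 to 13.79 in controls without passing the test (1.36 ± 0.61, adjusted p = 0.17), and Sftpc, the surfactant protein that defines type II cells, had 13.52, 12.99 and 13.53 against 9.91 to 13.1 (adjusted p = 0.369).

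Type I genes were divided. Beside Cldn18, the genes Igfbp2, which binds insulin-like growth factors (difference 3.57 ± 0.78), Gprc5a, a retinoid-induced receptor (2.44 ± 0.53), and Clic5, an ion channel protein (1.34 ± 0.32), were higher at an adjusted p of 0.0216, 0.0216 and 0.0267, with no overlap. Ager, the receptor for advanced glycation end products that marks type I cells, had 9.17, 8.42 and 9.84 against 6.47 to 8.54 in controls, which overlap (1.79 ± 0.46, adjusted p = 0.0371). Sema3b, a semaphorin, fell from 6.52 to 7.73 in controls to 4.78, 2.73 and 3.63, at least 1.62-fold (fitted difference -3.51, adjusted p = 0.00453), and Aqp5, a water channel also found in airway glands, differed by -1.47 ± 0.41 (adjusted p = 0.0476). In all 12 of 17 type I genes and 15 of 20 type II genes were higher, with medians of 0.76 and 0.26. The type II median was 1.27 against controls 1 and 2 and 0.09 against controls 3 to 6. Cldn10, a claudin of airway epithelium, had 9.72, 10.53 and 10.29 against 11.21 to 11.78 (-1.33 ± 0.25, adjusted p = 0.0103). The call of Sema3b was lost without control 3, 4 or 6 or non-fibrotic replicate 8 or 10 (adjusted p up to 0.0191).

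**Figure D4:**
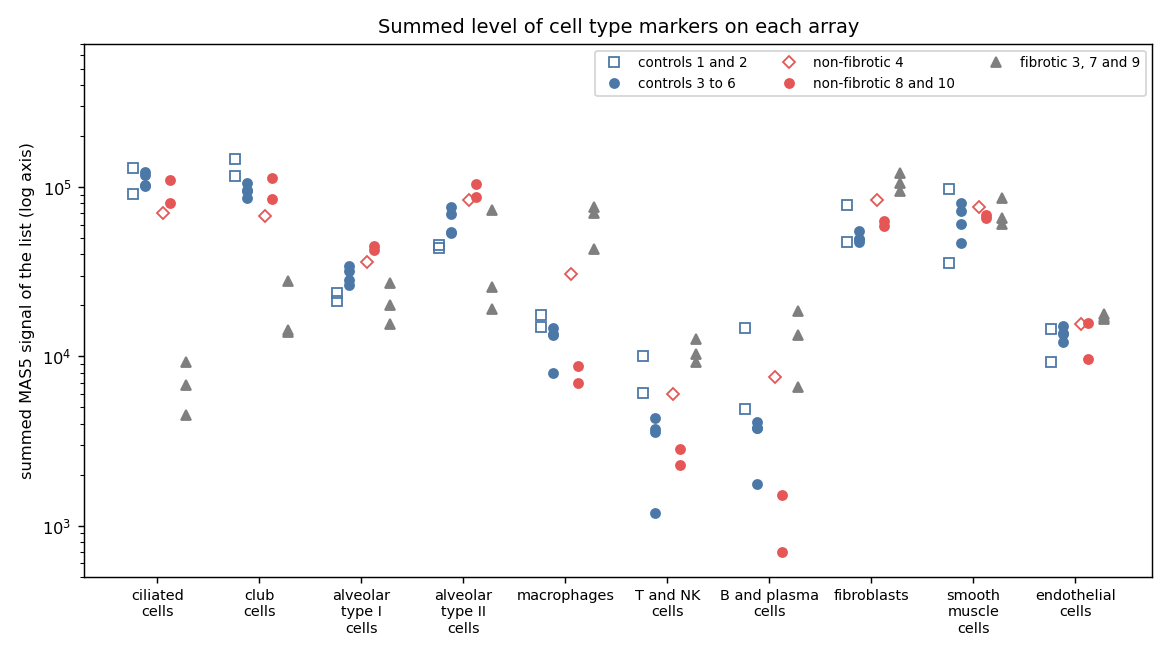
Summed MAS5 signal of the markers of each cell type on each array (logarithmic axis, arbitrary units). Squares and blue points are controls, the open diamond is non-fibrotic replicate 4, red points are replicates 8 and 10, and triangles are fibrotic bronchi. Non-fibrotic bronchi lie above all controls for alveolar type I and type II cells, and replicate 4 lies above all controls for macrophages (30790).

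Among genes of cell division, Mki67 and Ccnd1 rose. Mki67, a nuclear protein of dividing cells, had log2 signals of 12.04, 11.35 and 11.96 in non-fibrotic bronchi and 9.19 to 11.11 in controls (median 9.72), a 3.81-fold higher signal (log2 difference 1.93 ± 0.35, adjusted p = 0.00973, lost in 8 of the 9 fits without 1 array, adjusted p up to 0.0392). The highest control, 11.11, was replicate 1, and the difference was 1.26 from controls 1 and 2 and 2.27 from controls 3 to 6. Ccnd1, the cyclin D1 that drives entry into the cell cycle, had 13.19, 13.78 and 13.85 against 11.6 to 12.46 (median 11.91), a rise of 1.66 ± 0.22 (adjusted p = 0.00177). Its other 2 probe sets differed by 0.37 and 0.53 and were not called, and the call at the brightest was lost without non-fibrotic replicate 8 or 10 (adjusted p up to 0.0138).

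These 2 were the called members of 35 cell cycle genes (0.183% of all genes rose), of which 29 were higher, with a median of 0.79 (1.14 against controls 1 and 2 and 0.74 against controls 3 to 6). Birc5, which guides chromosome segregation, and Mcm5, a part of the replicative helicase, differed by 2.00 ± 0.42 and 1.37 ± 0.31 without overlap (adjusted p = 0.0183 and 0.0249), and Aurkb, a mitotic kinase, differed by -1.19 ± 0.32 (adjusted p = 0.0436). Shcbp1 is a protein of dividing cells. By the fitted difference it had with Cryba2 the largest rise among called genes with a group mean above the level of absent transcripts. It had 8.11, 7.72 and 8.61 while every control lay under the level of absent transcripts, at least a 3.09-fold rise (adjusted p = 0.00914, lost in 8 of the 9 fits without 1 array, adjusted p up to 0.0375). Its other probe set differed by 0.67 (adjusted p = 0.746). The summed signal of the list was 34140 to 37290 in non-fibrotic bronchi and 19470 to 28230 in controls, and without Ccnd1 the sums overlapped (20120 to 25680 and 16030 to 23570).

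Cdkn1a, the inhibitor of cyclin-dependent kinases that p53 induces, rose as well. It had log2 signals of 13.91, 14.08 and 13.74 against 12.06 to 13.04 in controls (median 12.86), a 2.22-fold higher signal (1.15 ± 0.20, adjusted p = 0.00814). Control 1, at 12.06, stood below the other 5, and the groups did not overlap. The call was lost in 8 of the 9 fits without 1 array (adjusted p up to 0.0359). It was the only called gene of 18 p53 targets and apoptosis genes, 13 of which were higher (median 0.37). The summed signal of the 18 was 43450 to 51590 in non-fibrotic bronchi and 27680 to 35020 in controls, with no overlap, also without Cdkn1a (29780 to 34270 and 22350 to 28120). Sums of other lists, such as the alveolar ones, did not overlap either.

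Genes of matrix and of fibroblasts showed few calls. None of 32 collagens and collagen cross-linking genes was called, the median was 0.18, and Col1a1, the main chain of type I collagen, had 14.22, 14.24 and 13.82 against 13.14 to 14.17 in controls (0.59, adjusted p = 0.112). Of 22 matricellular and hyaluronan genes none was called and 18 were higher (median 0.64, or 0.22 without replicate 4). Tnc, the matricellular protein tenascin C, was split among the non-fibrotic arrays, with 11.94 in replicate 4, above all controls (7.93 to 10.5), and 6.92 and 8.32 in replicates 8 and 10. Among fibroblast genes, Fbln1, a fibulin of the extracellular matrix, fell from 10.17 to 10.81 in controls to 9.37, 8.62 and 9.19 (-1.46 ± 0.24, adjusted p = 0.00606, lost without control 3, 4 or 6 or non-fibrotic replicate 8 or 10, adjusted p up to 0.0257). The study chose Fbln1 on these samples, which makes it no independent evidence. Ptn, the growth factor pleiotrophin, named after its values were seen, had 10.44, 9.61 and 10.98 against 8.12 to 8.74, a rise of 1.90 ± 0.29 (adjusted p = 0.00413, lost without control 3, 4 or 6 or non-fibrotic replicate 10, adjusted p up to 0.02).

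None of the leukocyte marker genes passed the call level. None of 23 macrophage genes was called, and the list's median was 1.36 in replicate 4 but -1.45 and -0.77 in replicates 8 and 10. Cd68, a lysosomal protein of macrophages, had 10.02 in replicate 4, above every control (7.52 to 8.75), and 6.54 and 6.36 in replicates 8 and 10, below every control. Of 20 T and NK cell genes and 12 B and plasma cell genes none was called (medians -0.68 and -1.36, or -0.15 and -0.79 with the floor). The T and NK cell median was 0.63 in replicate 4 and -1.21 and -0.61 in replicates 8 and 10, and -0.02 against controls 3 to 6. The B and plasma cell median was 1.07 in replicate 4 and -2.51 and -1.72 in replicates 8 and 10, and -0.77 against controls 3 to 6. Of 11 mast cell genes none was called, but Fcer1a, a chain of the IgE receptor, and Gata2, a transcription factor of mast cells, were at least 1.63-fold and 1.43-fold lower without overlap (adjusted p = 0.0113 and 0.0252), with all non-fibrotic arrays under the level of absent transcripts. The other probe set of Gata2 was higher by 2.36 (adjusted p = 0.127). Of 27 endothelial genes, Erg, an endothelial transcription factor, rose from 6.41 to 7.75 in controls to 8.95, 9.16 and 8.54 (2.06 ± 0.36, adjusted p = 0.00761, lost in 8 of the 9 fits without 1 array, adjusted p up to 0.0297). The other probe set of Erg differed by 0.81 (adjusted p = 0.405). In this list 15 genes were higher and 12 lower, among the latter Icam2 (-1.04 without overlap, adjusted p = 0.0436). The list's median was 0.08, and -0.14 against controls 3 to 6.

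By the fitted difference, several of the largest changes were in genes outside the lists described so far. Gad1, the enzyme that makes the transmitter GABA, had log2 signals of 7.65 to 9.37 in controls (median 8.36) and 1.13, 2.61 and 2.18 in non-fibrotic bronchi, at least 3.74-fold lower (fitted difference -6.45 ± 0.58, adjusted p = 0.00024). Its other probe set, with group means of 3.09 and 2.91, differed by -0.19. Gad1 was the only called gene of 18 for GABA synthesis, transport and receptors, of which 13 were higher. At an adjusted p under 0.05, 3 of the 18 were higher and 2 lower. That list's median was 0.92, or 0 with the floor, and 10 of the 18 lay under the level of absent transcripts in both groups. Scin, the actin-severing protein scinderin, had 9.19 to 12.83 in controls (median 11.48) and 4.60, 5.99 and 5.77, at least 24.8-fold lower (adjusted p = 0.00145), and was together with Scgb3a1 the only gene called against controls 1 and 2 alone (adjusted p = 0.00154 and 0.00644). For both Gad1 and Scin, all non-fibrotic arrays lay under the level of absent transcripts. Tnfrsf19, a receptor of the tumour necrosis factor family, fell at least 2.12-fold, Slc5a11, a sodium-coupled inositol transporter, at least 2.45-fold, and Ano4, an anoctamin, at least 1.45-fold (adjusted p = 0.00174, 0.00797 and 0.00827). Morn5, a protein with MORN repeats, had 8.86 to 10.66 in controls (median 10.32) and 6.84, 3.87 and 5.57, a fall of 4.70 ± 0.63 (-3.50 with the floor, adjusted p = 0.00174). Tnfrsf19 and Morn5 stayed called whichever array was left out, and Slc5a11 and Ano4 lost their calls in 8 of the 9 such fits (adjusted p up to 0.0335).

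Other genes with the largest rises belonged to none of the groups above. Cryba2, a crystallin, had 9.59, 8.93 and 9.01 in non-fibrotic bronchi against 5.22 to 6.08 in controls, at least a 6.32-fold rise (adjusted p = 0.00158). Trim6, a ubiquitin ligase, had 8.76, 8.38 and 8.96 against 5.16 to 6.00, at least a 4.54-fold rise (adjusted p = 0.00148). Both were called whichever array was left out. Snx27, a sorting nexin of endosomes, Dclk2, a doublecortin-like kinase, and Cobl, an actin nucleator, rose by 2.04 ± 0.34, 2.01 ± 0.35 and 1.95 ± 0.33 (adjusted p = 0.00647, 0.00786 and 0.00722). The other 3 probe sets of Snx27 differed by 0.51, -0.12 and 0.24 and the other of Cobl by -0.01, and none of these was called. Against controls 1 and 2 Snx27 differed by 1.24. Their calls were lost in 6, 8 and 6 of the 9 fits without 1 array (adjusted p up to 0.0318).

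The study's own tables of genes for non-fibrotic bronchi were chosen on these samples, so their direction is no independent evidence. Of 15 genes listed as higher, 12 were higher here, with a median of 1.36, and Cldn18 alone was called. The study also reports higher Cldn18 in non-fibrotic airways by quantitative PCR. Gas6, a ligand of the TAM receptors, differed by 0.71 ± 0.21 at its brightest probe set (adjusted p = 0.058), and a dimmer probe set rose by 3.16 (adjusted p = 0.00145). Apln, the vascular peptide apelin, had 8.08, 7.95 and 7.43 with every control under the level of absent transcripts, at least 2.47-fold higher (adjusted p = 0.0113). Of 14 measured genes listed as lower, 13 were lower (median -2.80), and 5 fell, namely Gad1, Cyp2a3, Dmrt2, Stra6 and Sorl1. Dmrt2, a transcription factor with a DM domain, had 7.23, 1.64 and 4.93 against 8.53 to 9.87 in controls (-4.60 ± 0.81, -2.45 with the floor, adjusted p = 0.00842), with replicate 4 well above the other 2. Stra6, the cellular receptor for retinol-binding protein, had 6.56, 4.42 and 4.10 against 6.96 to 9.01 in controls (-3.35 ± 0.60, -1.85 with the floor, adjusted p = 0.00964). Sorl1, a sorting receptor, had 10.04, 10.31 and 10.87 against 11.88 or more in controls (-1.52 ± 0.28, adjusted p = 0.00973), and all 8 of its probe sets were lower, 2 of them called. The calls of Dmrt2, Stra6 and Sorl1 were lost in 8, 7 and 9 of the 9 fits without 1 array (adjusted p up to 0.0247, 0.0405 and 0.0337). Of 13 genes in the study's table of cytokines and growth factors, most of which it lists as lower, 9 were higher and 4 lower. Their median was 0.56 (0.06 against controls 1 and 2 and 0.82 against controls 3 to 6), and Fbln1 alone was called. The study lists Cxcl3, Cxcr4, Fndc3b, Ghitm and Igfbp5 as lower. At their brightest probe sets they differed by 0.72, 0.08, 0.68, 0.20 and 0.56, none of them called. Each also had a dimmer probe set that was lower (-1.93, -1.55, -1.54, -0.78 and -1.27), again not called.

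Fibrotic bronchi of the exposed rats were then set against the non-fibrotic ones for the genes called above. These tests share the non-fibrotic arrays with the comparison that chose the genes, and specimens of the 2 groups came in part from the same rats, which could not be paired. Over all genes 1.47% were higher and 3.83% lower in fibrotic than in non-fibrotic bronchi at an adjusted p under 0.01. Of the 88 called genes 11 differed, 4 higher and 7 lower in fibrotic bronchi. Of the 62 that had fallen, 6 lay still lower in fibrotic bronchi, namely Dnah1 (by 3.60 ± 0.35, adjusted p = 1.6e-05), Ccdc30, Pon1, Erich3, Cfap20dc and Adam8. The other 4 fallen genes that differed, Mrm3, Stra6, Sema3b and Fbln1, were higher in fibrotic bronchi. Stra6, for one, had 8.23, 9.55 and 7.99 in fibrotic bronchi, in and above the range of controls, and was 3.56 ± 0.70 higher than in non-fibrotic bronchi (adjusted p = 0.00443).

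Of the 26 genes that had risen, only Cryba2 differed, at 6.06, 5.66 and 7.29 in fibrotic bronchi (2.84 lower, adjusted p = 0.00349). The ciliated and club cell lists parted the groups further, with 24 of 26 and 9 of 19 genes lower in fibrotic than in non-fibrotic bronchi at the call level and none higher. Foxj1 was among them, with 6.80, 7.70 and 8.42 in fibrotic bronchi (-4.75 ± 0.35, adjusted p = 1.8e-06), and so was Cyp2f4 (-4.74 ± 0.70, adjusted p = 0.00053). In the reverse direction, 8 of 23 macrophage genes and 8 of 32 collagen genes were higher in fibrotic bronchi.

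**Figure D5:**
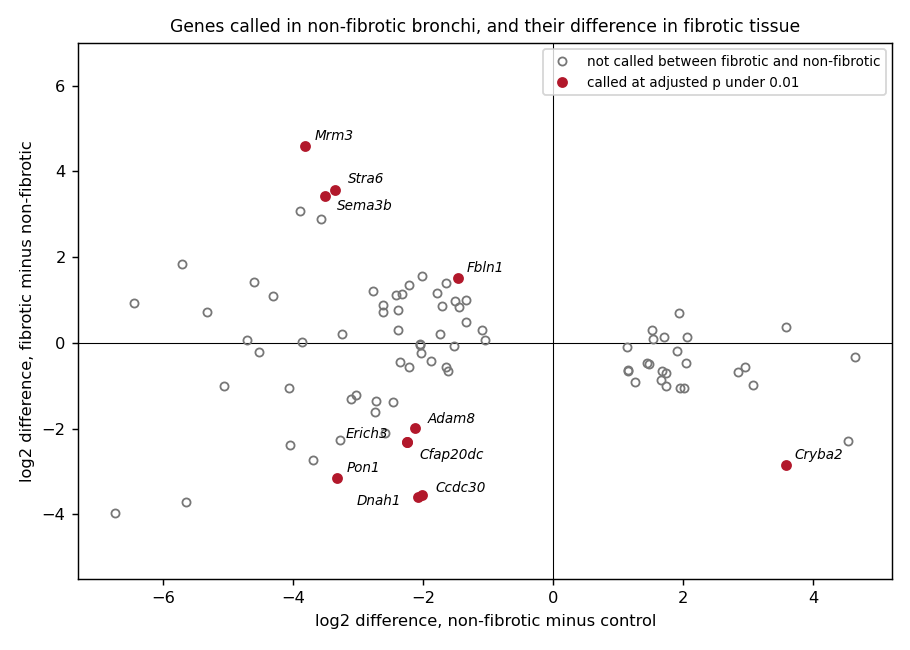
The 88 genes called in non-fibrotic bronchi, by their log2 difference from controls (horizontal) and the log2 difference of fibrotic from non-fibrotic bronchi (vertical). Both are fitted differences with no floor, and filled points passed an adjusted p under 0.01 on the vertical axis. Both axes contain the non-fibrotic arrays and are not independent. Of the 11 filled points, 6 are fallen genes lower still in fibrotic bronchi and 4 are fallen genes higher there.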

How the data were processed

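Bronchial RNA (PicoPure extraction, Nugen amplification) of 12 specimens was hybridized to rat 3′ expression arrays (Affymetrix). The authors summarised each probe set to an intensity with MAS5 and deposited these intensity values on a linear scale, scaled by the authors to a trimmed mean signal of 500.1 or 500.2 per array. Scaling of this kind makes each value relative to the rest of its array. Rosetta Resolver error weights, which the methods apply next, were not used here, and no measure of depth applies to arrays, whose number limits the precision. Groups were taken from the labels.

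The log2 of each deposited signal was used, with no pseudocount added. Of 31099 probe sets, 57 Affymetrix controls were left out and 31042 tested with no filter. The array annotation gave 1 symbol for 20826 of these, several for 436 and none for 9780. A gene was represented by its probe set of highest mean signal over all arrays of the study, which leaves 14217 genes. One model of the 3 groups was fitted with limma 3.58.1 (lmFit, eBayes with a trend) in R 4.3.3 and tested on simulated data. Adjusted p-values (Benjamini-Hochberg) are two-sided and over all probe sets. The level of absent transcripts is the highest of 84 values.

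The comparison, gene lists and named genes were chosen with earlier results of these data known. Named are called genes of largest change without overlap (10 each way, the higher mean above that level), for each list the 4 genes of smallest p, defining cell markers, and genes of the study's tables. The text prints part of them, and other genes (Ak7, Aldh1a1, Aurkb, Ccdc30, Cfap20dc, Col1a1, Crispld2, Dcxr, Erich3, Mrm3, Pecr, Rgs22, Tnc and those marked in the text) were named after their values were seen. Alternatives changed the threshold, normalization, pseudocount (16), floor (20th percentile), filter (lowest 40%), variance model, array weights, probe set summary and arrays used. Sums of a list without the gene that added most to the gap were added after seeing the data. Python 3.11.15 with pandas 2.3.3 and numpy 2.4.6 made the tables and matplotlib 3.10.9 the figures.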

Additional observations from a re-analysis of the deposited data

Results flagged for a closer look

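Among the 6 controls, 5 of the 45 called genes looked at had a control array that stood apart from the others by Dixon's criterion, which chance meets in about 1 in 20 groups. Control 1 was low for Rgs22 (9.42), Erich3 (9.42) and Cdkn1a (12.06) and high for Erg (7.75), and control 5 was low for Ccl20 (8.09).

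The difference between fibrotic and non-fibrotic bronchi passed the adjusted p of 0.01 in limma for 11 called genes. By the fitted log2 difference fibrotic bronchi were lower for Dnah1 (-3.60), Ccdc30 (-3.55), Pon1 (-3.14), Cryba2 (-2.84), Cfap20dc (-2.32), Erich3 (-2.31) and Adam8 (-1.99). They were higher for Mrm3 (4.60), Stra6 (3.56), Sema3b (3.43) and Fbln1 (1.52). All fibrotic arrays of Ccdc30, Pon1 and Erich3 and all non-fibrotic arrays of Mrm3 and Sema3b lay under the level of absent transcripts, and measured from it the changes were at least 8.57-, 1.71-, 2.38-, 5.36- and 1.58-fold.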

How the results depend on the processing

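The number of calls moved between non-fibrotic and control bronchi. It was 1811 at an adjusted p under 0.05, 892 at an unadjusted p under 0.001 with a fold over 2 (390 rose and 502 fell), 397 with a floor at the 20th percentile, 333 with a pseudocount of 16, 282 after quantile normalization, 79 with the mean of a gene's probe sets, 76 without the variance trend (in which 19 of the 45 called genes named in the text kept their call) and 58 with the label form as a random block. Against controls 3 to 6 it was 1016 and against controls 1 and 2 it was 2, and without controls 1 and 2 and non-fibrotic replicate 4, an alternative chosen after seeing the data, 1497. A fit without the fibrotic arrays called 181 (36 rose and 145 fell), and 34 of the 45 called genes named in the text kept their call. Without 1 array the number ranged from 41 to 371. Between fibrotic and non-fibrotic bronchi 1185 probe sets were called, 2970 at an adjusted p under 0.05, 292 in a fit of these groups alone and 598 to 1922 without 1 array, the last without non-fibrotic replicate 4. Foxj1, which was not called, changed sign against controls 1 and 2 (-0.26), after quantile normalization (-0.09), with the random block (-0.05) and without control 3 or 4 (-0.02 each) or non-fibrotic replicate 8, and without 1 array it ranged from -0.21 to 0.16. Tnc, also not called (-0.11), changed sign with array weights (0.14), against controls 1 and 2 (0.21) and without control 1 or 3 or non-fibrotic replicate 8 or 10 (from -1.55 to 0.96 without 1 array), and Cd68 (-0.62) without non-fibrotic replicate 10 (from -1.81 to 0.02). No paired analysis was possible, because control and exposed rats are different animals and the labels do not tie fibrotic and non-fibrotic specimens to rats. The cause of these movements was not tested.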
